A study of Mus musculus with 10 samples.

Results

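Neurogenic basic helix-loop-helix (bHLH) transcription factors were followed in E16 cortex by 9 genes chosen by symbol: the neurogenins Neurog1 and Neurog2, the NeuroD factors Neurod1, Neurod2, Neurod4 and Neurod6, Bhlhe22, Nhlh1 and the E protein Tcf4. All 9 were found among the 53379 genes counted. RNA-seq libraries were made by Smart-Seq2 from 400 sorted cells each, with 1 embryo per library, for 3 cKO-Cdkn1c-MADM-7 embryos (Cdkn1c-flox on both the GT and the TG chromosome, with Emx1 Cre/+) and 7 control MADM-7 embryos (GT/TG without the flox allele, with Emx1 Cre/+), called cKO and control here. Both groups carried Emx1-Cre, active in progenitors of the dorsal telencephalon and their progeny, and the MADM cassettes on chromosome 7, which give sparse GFP and tdT labelling after Cre recombination. GFP+, tdT+ and GFP+/tdT+ cells were pooled at the sort, so cells with uniparental disomy of chromosome 7 were mixed with cells without it in both groups, and values belong to the pool. The flox allele came from both parents, the labels give the strain as CD1 and the growth notes a mixed C57BL/6J, CD1 background, and embryos of both sexes were used without separation, with neither the sex nor the litter of each given in the sources used here.

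In the developing cortex, neurogenic bHLH factors act in sequence. Neurogenins are proneural factors of progenitors that commit cells to a glutamatergic neuronal fate, Neurod1, Neurod4 and Nhlh1 come on as cells leave the cell cycle, and Neurod2, Neurod6 and Bhlhe22 mark postmitotic projection neurons. Each binds the E-box, a short palindrome-like DNA motif, usually as a dimer with an E protein such as Tcf4, while Id proteins trap E proteins and Hes factors repress proneural genes. Cdkn1c encodes a cyclin-dependent kinase inhibitor expressed from the maternal allele.

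Depth ran from 1738220 to 3362487 reads on genes per library, with a median of 2847960. Levels are given as CPM, read counts scaled to a common library size after trimmed mean of M values (TMM) normalization. Cdkn1c stood at 7.46 ± 3.43 CPM (SD, n = 3) in cKO and 95.9 ± 20.1 CPM (n = 7) in control libraries, with no overlap, so every library went with its label. All 4 genes listed for dorsal telencephalic identity (Emx1, Emx2, Lhx2, Pax6) were present in every library, from 10.5 CPM for Emx2 to 456 CPM for Lhx2, and none passed in edgeR, DESeq2 or limma-voom, with 1, Emx2, higher at an unadjusted p under 0.05. An unadjusted p under 0.05 was had by 9.25% of the 11551 genes as higher in cKO and by 7.11% as lower, and DESeq2 called 2.6% higher and 1.82% lower, which are the shares to set beside counts by these criteria. The share of uniquely aligned reads outside genes ran from 5.47 to 16.7% and split the libraries into a low-outside set of 5 (cKO replicate 3 and control replicates 1, 2, 6 and 7) and a high-outside set of 5 (cKO replicates 1 and 2 and control replicates 3, 4 and 5). Values within these sets are given beside the pooled ones.

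Neurod6 and Neurod2, factors of postmitotic projection neurons, and Nhlh1, a factor of newly born neurons, moved in opposite directions between genotypes. Neurod6 was 1.97-fold lower and Neurod2 1.68-fold lower in cKO, Nhlh1 was 2.31-fold higher, and the other 6 factors did not pass the threshold of adjusted p under 0.05. Of the 9 factors, 3 therefore passed, against 3.15% of the 11551 genes tested; 2 were lower, against 0.883% of all genes, and 1 was higher, against 2.27%. All cKO libraries lay below every control for 3 factors (Neurod6, Neurod2 and Tcf4), which was the case for 2.68% of genes, and above every control for Nhlh1 alone, which was the case for 3.32%. Log2 fold changes were negative for 7 factors and positive for 2, with a median of -0.35 over the 9 factors and 0.01 over all genes. In a bulk sample, fewer cells of a type and less RNA per cell cannot be told apart.

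**Figure D1:**
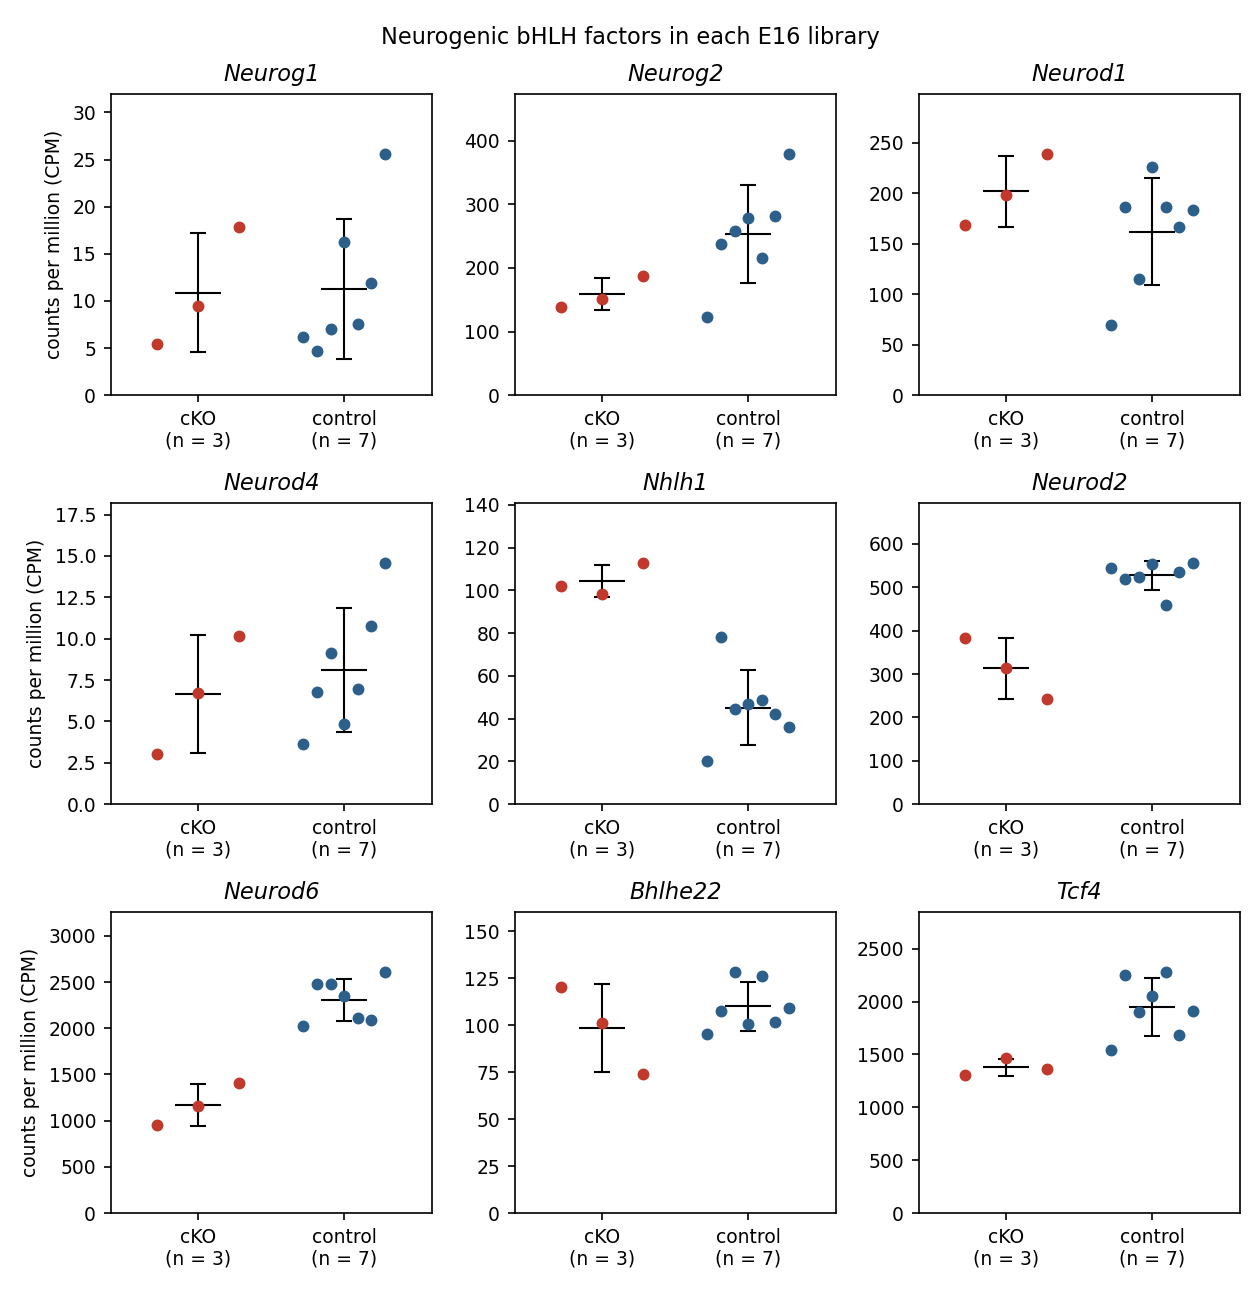
Expression of the 9 factors in CPM (vertical axes from 0) in each library, with cKO libraries in red, controls in blue, and the mean ± SD in black. The red points of Neurod2, Neurod6 and Tcf4 lie below all blue points, those of Nhlh1 lie above them, and the groups overlap in the other 5 panels.

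**Figure D2:**
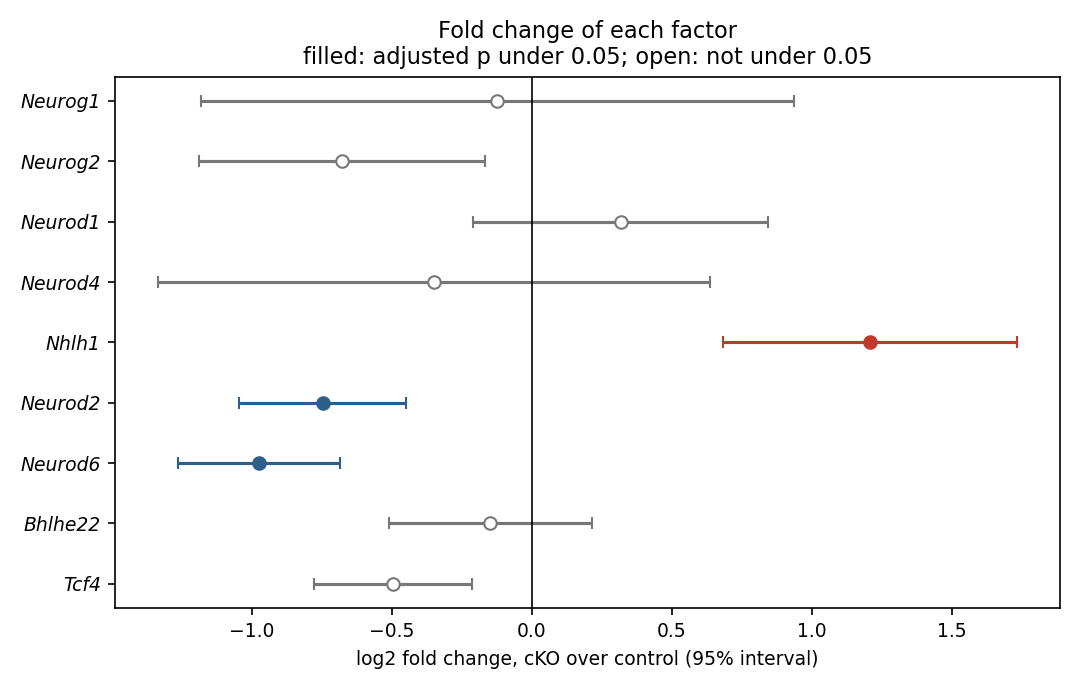
Log2 fold change of each factor in cKO over control with its 95% interval from the edgeR fit, filled where the adjusted p was under 0.05. Only Nhlh1, at 1.21, Neurod2, at -0.75, and Neurod6, at -0.98, are filled, and the widest intervals are those of Neurog1 and Neurod4.

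Levels differed widely among the factors in control cells. Per kilobase of transcript, Neurod6 stood at 1072 ± 107 CPM (SD, n = 7) and ranked 78 among 11545 genes, which made it the highest of the 9. Tcf4 followed at 1057 ± 150 CPM per kilobase, within the spread of Neurod6, although this rests on its median coding transcript of 1841.5 bases among 62 transcripts, and over the union of its exons (27382 bases) the level was 71.1. Neurod2 (168 ± 10.5 CPM per kilobase) was below every Tcf4 value, and Neurog2 (114 ± 34.8), Neurod1 (59.3 ± 19.3), Bhlhe22 (32.9 ± 3.83), Nhlh1 (18.3 ± 7.09), Neurog1 (6.70 ± 4.41) and Neurod4 (2.42 ± 1.12) came next. From Neurod2 downwards each factor overlapped its neighbour in this order in at least some libraries. Among cKO libraries the per-kilobase level of Neurod6 fell to 546 ± 106 CPM (n = 3), below Tcf4 at 749 ± 43.9. This order too rests on the median coding transcript of Tcf4, and over the union of its exons Tcf4 would lie below Neurod6.

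The late factors Neurod2, Neurod6 and Bhlhe22, and the E protein Tcf4, were also the most even among control embryos. The coefficient of variation of Neurod2 over the 7 controls was 6.26%, and 1.06% of the genes tested had a lower one. It was 9.94% for Neurod6, 11.6% for Bhlhe22 and 14.2% for Tcf4. The early factors varied more between embryos, at 30.6% for Neurog2, 32.5% for Neurod1, 38.7% for Nhlh1, 46.1% for Neurod4 and 65.8% for Neurog1, of which Neurog1 and Neurod4 had means of 30.4 and 20.8 reads per library. Leaving out each control in turn, a step chosen after seeing the data, moved 2 of these values by over 1.5 times, that of Neurod2 to 2.81% without control replicate 5 and that of Neurod1 to 20.5% without control replicate 1. Neurog2 was at 20.6% without control replicate 1. Lower values were then had by 43.8% of genes for Neurog2 and by 43.3% for Neurod1. With 1 control left out, neither Tcf4 nor any late factor exceeded 15.4%, and no early factor fell under 20.5%.

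Neurog1 and Neurog2, the proneural factors of cortical progenitors, were not called. Neurog2 (chromosome 3, 127633135 to 127635631, plus strand, GRCm38) had 138, 152 and 187 CPM in cKO replicates 1, 2 and 3, and 122 CPM at the lowest, 258 at the median and 379 at the highest of the controls. The cKO libraries lay below 6 of the 7 controls, and control replicate 1 lay below all of them. Its log2 fold change was -0.68 (SE 0.24, 95% interval -1.19 to -0.17), with an edgeR adjusted p of 0.155 and an unadjusted p of 0.0122. Without control replicate 1 the value was -0.81 and the edgeR adjusted p 0.0247. The log2 ratio of means was -0.45 within the low-outside set and -0.79 within the high-outside set.

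Neurog1 (chromosome 13, 56250478 to 56252163, minus strand) was low in both groups, at 5.40, 9.45 and 17.8 CPM in the cKO replicates and 4.64 to 25.6 CPM, with a median of 7.57, in controls. The groups covered much the same range, with control replicate 7 highest. Its log2 fold change of -0.12 (SE 0.50, 95% interval -1.18 to 0.94) had an edgeR adjusted p of 0.933, and a difference within that interval was not detectable with these libraries. Its sign turned without cKO replicate 1 (0.23) and without control replicate 7 (0.22), and the log2 ratio of means was 0.56 within the low-outside set and -0.47 within the high-outside set.

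Neurod4 (chromosome 10, 130268152 to 130280240, minus strand), a factor of intermediate progenitors and newly formed neurons, was the lowest of the 9 per kilobase. It had 3.04, 6.70 and 10.2 CPM in the cKO replicates, and 3.63 to 14.6 CPM with a median of 6.99 in controls. The ranges overlapped almost fully. Neurod4 had a log2 fold change of -0.35 (SE 0.47, 95% interval -1.34 to 0.64, edgeR adjusted p = 0.782), or 0.035 without cKO replicate 1. The log2 ratio of means was 0.19 within the low-outside set and -0.52 within the high-outside set.

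Neurod1 (chromosome 2, 79452521 to 79456751, minus strand), which drives neuronal differentiation of intermediate progenitors, had 169, 198 and 239 CPM in the cKO replicates and 69.3 to 226 CPM, with a median of 183, in controls. Only cKO replicate 3 exceeded every control, and control replicates 1, 3 and 6 lay below all cKO libraries. Neurod1 had a log2 fold change of 0.32 (SE 0.25, 95% interval -0.21 to 0.85, edgeR adjusted p = 0.588). Its exons share 201 bases with Cerkl on the same strand and 154 with the lincRNA Gm26755 on the other, and reads there were left out of the count that ignores strand. With the strand-specific counts summed, its reads were 1.16 times as many, and the log2 fold change was 0.34. The log2 ratio of means was 0.66 within the low-outside set, where cKO replicate 3 lay above all controls, and 0.06 within the high-outside set.

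Nhlh1 (chromosome 1, 172052292 to 172057573, minus strand), a factor of newly born neurons, was the only one of the 9 to rise. It had 102, 98.1 and 113 CPM in the cKO replicates, and 20.0 CPM at the lowest, 44.7 at the median and 78.1 at the highest of the controls. Every cKO library lay above every control, with control replicate 2 the nearest and control replicate 1 the farthest. Nhlh1 rose by a log2 fold change of 1.21 (SE 0.25, 95% interval 0.68 to 1.73, edgeR adjusted p = 0.0113). The log2 ratio of means was 1.36 within the low-outside set and 1.10 within the high-outside set. Without cKO replicate 3 the adjusted p was 0.0558 at a log2 fold change of 1.15, and without each of the other 9 libraries in turn it stayed under 0.05.

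Neurod2 (chromosome 11, 98325415 to 98329648, minus strand), a regulator of projection neuron maturation and connectivity, fell. It had 384, 314 and 243 CPM in the cKO replicates and 459 CPM at the lowest, 535 at the median and 556 at the highest of the controls. All cKO libraries were below all controls, cKO replicate 3 being farthest down, and control replicate 5 was the lowest of its group. The log2 fold change was -0.75 (SE 0.14, 95% interval -1.05 to -0.45, edgeR adjusted p = 0.00565). The log2 ratio of means was -1.15 within the low-outside set, which rests on cKO replicate 3, and -0.55 within the high-outside set.

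Neurod6 (chromosome 6, 55677822 to 55681263, minus strand), a marker of postmitotic glutamatergic neurons of the cortex, had the largest fall of the 9 over all libraries. Its interval overlapped those of other factors, Neurod2, Neurog2 and Tcf4 among them. Neurod2 fell further without cKO replicate 1 (-0.92, against -0.85 for Neurod6) and within the low-outside set (-1.15, against -0.71). The cKO replicates had 953, 1159 and 1408 CPM, and the controls had 2028 CPM at the lowest, 2346 at the median and 2610 at the highest. A wide gap separated the groups, with cKO replicate 1 lowest. The log2 fold change was -0.98 (SE 0.14, 95% interval -1.27 to -0.69, edgeR adjusted p = 0.000471). It was called with each library left out, at -1.13 to -0.85, and the log2 ratio of means was -0.71 within the low-outside set and -1.13 within the high-outside set.

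Bhlhe22 (chromosome 3, 18054174 to 18057517, plus strand), a repressor of postmitotic neurons that takes part in area identity and axon projection, was not called. It had 120, 101 and 73.8 CPM in the cKO replicates, and 95.1 to 128 CPM with a median of 108 in controls. cKO replicates 1 and 2 lay within the control range and replicate 3 below it. Bhlhe22 had a log2 fold change of -0.15 (SE 0.17, 95% interval -0.51 to 0.21, edgeR adjusted p = 0.740), and without cKO replicate 3 it was 0.016. The log2 ratio of means was -0.49 within the low-outside set, where the single cKO library lay below all controls, and -0.10 within the high-outside set. Over the cKO replicates Bhlhe22 had the same order as Neurod2, and its interval overlapped that of Neurod2 and not that of Neurod6; no difference between these genes was tested.

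**Figure D3:**
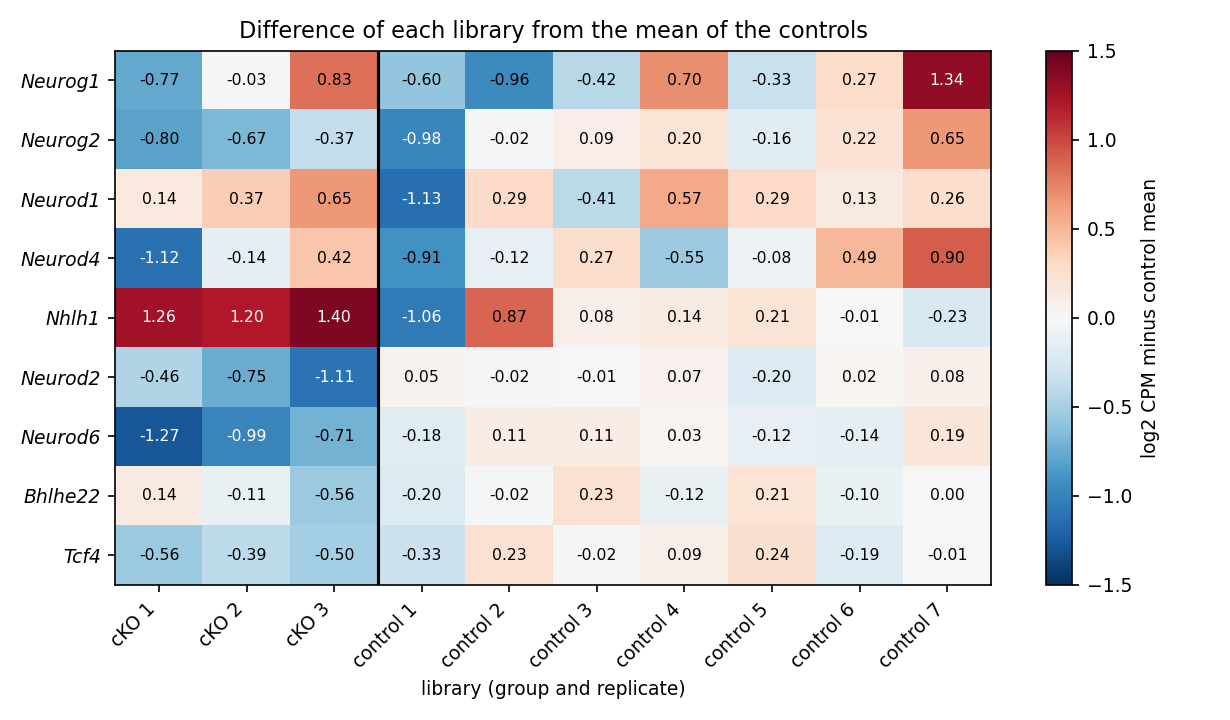
Log2 CPM (prior count 2) of each factor in each library, less the mean of the 7 controls, from blue (lower) to red (higher). Nhlh1 is red and Neurod2, Neurod6 and Tcf4 blue in all 3 cKO columns, while the cKO values of Neurog1 run from -0.77 to 0.83.

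The sequences just upstream are shown for the 3 factors that passed, of which 2 fell and the other rose. RefSeq promoter tables of GRCm38.p6 held a start for 7 of the 9 factors, with none for Bhlhe22 and Tcf4. Each line gives the 250 bases before the start, 5′ to 3′ on the gene's strand, at chr6:55681264-55681513 for Neurod6, chr11:98329646-98329895 for Neurod2 and chr1:172057597-172057846 for Nhlh1, all on the minus strand. Capitals mark E-boxes of the form CANNTG, which read the same class on both strands.
Neurod6: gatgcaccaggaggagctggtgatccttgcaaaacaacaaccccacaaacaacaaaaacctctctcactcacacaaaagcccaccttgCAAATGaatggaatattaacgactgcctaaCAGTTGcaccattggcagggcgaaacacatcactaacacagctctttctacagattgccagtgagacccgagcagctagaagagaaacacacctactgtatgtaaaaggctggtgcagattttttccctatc
Neurod2: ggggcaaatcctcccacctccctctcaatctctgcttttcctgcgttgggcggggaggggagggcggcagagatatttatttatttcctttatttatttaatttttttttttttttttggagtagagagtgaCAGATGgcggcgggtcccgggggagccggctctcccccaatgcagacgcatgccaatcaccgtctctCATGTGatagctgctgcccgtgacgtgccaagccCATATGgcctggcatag
Nhlh1: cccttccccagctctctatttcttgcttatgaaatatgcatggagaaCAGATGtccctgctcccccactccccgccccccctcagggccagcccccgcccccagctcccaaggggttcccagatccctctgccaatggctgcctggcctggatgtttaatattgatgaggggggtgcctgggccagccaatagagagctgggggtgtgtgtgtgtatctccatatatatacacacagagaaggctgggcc

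The Neurod6 window holds 2 E-boxes, the nearer at position -132 from the start. The Neurod2 window holds 3, the nearest at position -17, and the Nhlh1 window holds 1, at position -203. Neurod2 and Nhlh1 share the form CAGATG, which neurogenin and NeuroD factors are known to favour. Among the other factors with an entry, the Neurod1 window holds 1 and those of Neurog1, Neurog2 and Neurod4 hold none. Of 32851 windows of the same length over all genes, 66.2% hold a CANNTG and 14.4% hold a CAGATG on either strand. Windows with an E-box were thus found for factors that fell, rose and did not pass. A match of letters is a description and not a binding site.

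Tcf4 (chromosome 18, 69343356 to 69689079, plus strand), the E protein of the 9 and a dimer partner of the others, lay at the edge of the threshold. It had 1309, 1467 and 1359 CPM in the cKO replicates, and 1539 CPM at the lowest, 1914 at the median and 2281 at the highest of the controls. All cKO libraries were below all controls, with control replicate 1 the nearest. The log2 fold change was -0.50 (SE 0.13, 95% interval -0.78 to -0.22), with an edgeR adjusted p of 0.0512 and an unadjusted p of 0.00167. The adjusted p was 0.0182 in DESeq2, 0.0505 in limma-voom, 0.0210 without control replicate 1 and 0.0422 without control replicate 6, and it exceeded 0.05 without each of the other 8 libraries. The log2 ratios of means were -0.44 within the low-outside set and -0.58 within the high-outside set.

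Read ratios within a library do not depend on its depth, and they set Neurod6 apart from Neurod1. The ratio of Neurod6 to Neurod1 was 5.65, 5.86 and 5.89 in the cKO replicates and 10.4 to 29.3 in controls, so the groups did not overlap and the cKO values were nearly equal. Neurod6 and Neurod2 did not fall in step. Their ratio was 2.48, 3.69 and 5.79 in cKO replicates 1, 2 and 3, and 3.72 to 4.77 in controls, so that cKO replicate 1 had relatively the least Neurod6 and cKO replicate 3 the most. The ratio of Nhlh1 to Neurod1 lay between 0.472 and 0.606 for cKO and between 0.196 and 0.419 for controls, again without overlap. The ratio of Neurod2 to Neurog2 was 2.78, 2.07 and 1.30 in cKO replicates 1, 2 and 3 and 1.47 to 4.46 in controls, so these groups overlapped. These ratios are given as a description, without a test.

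**Figure D4:**
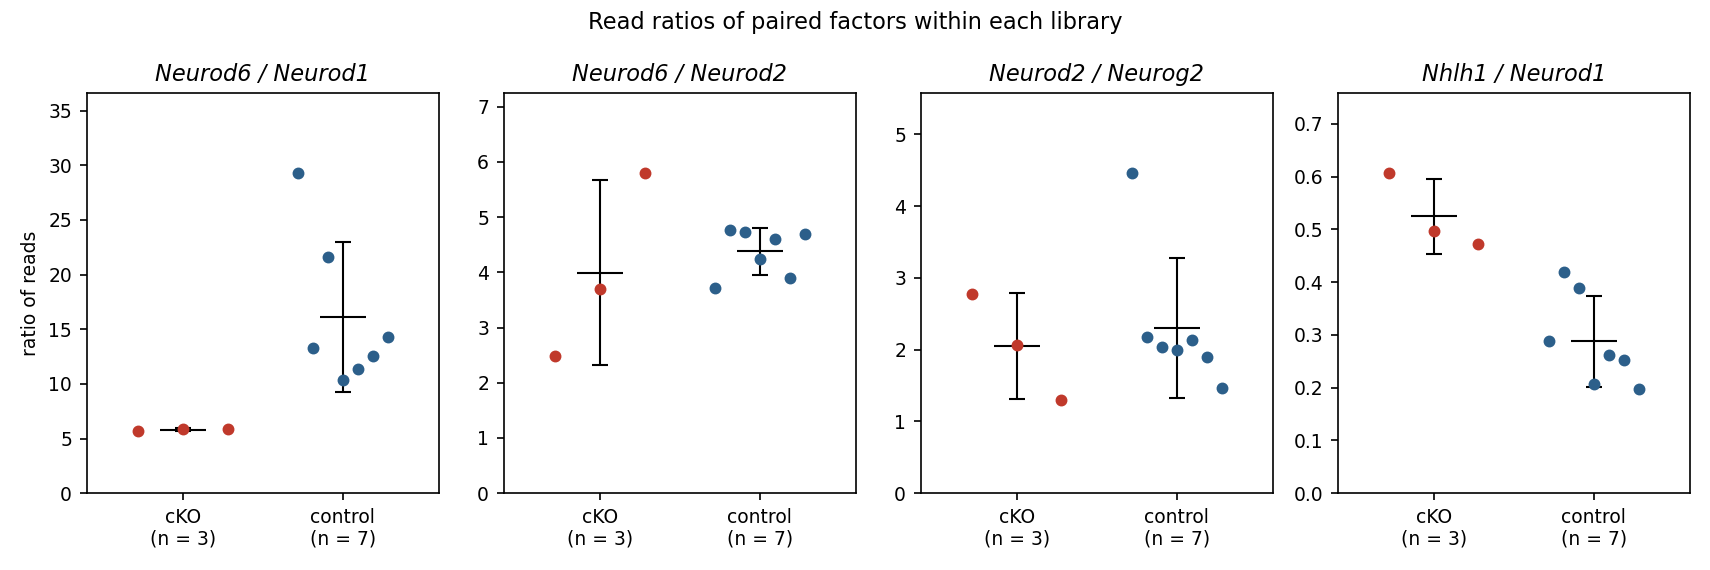
Ratio of reads of Neurod6 to Neurod1, Neurod6 to Neurod2, Neurod2 to Neurog2 and Nhlh1 to Neurod1 in each library (vertical axes from 0), with mean ± SD in black. The cKO libraries (red) sit between 5.65 and 5.89 in the first panel, below all controls (blue), spread from 2.48 to 5.79 in the second, overlap the controls in the third and lie above them in the fourth.

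Among the 3 cKO embryos, replicate 3 had the highest value of Neurog1, Neurog2, Neurod1, Neurod4, Nhlh1 and Neurod6 and the lowest of Neurod2 and Bhlhe22. Replicate 1 had the lowest value of Neurog1, Neurog2, Neurod1, Neurod4, Neurod6 and Tcf4 and the highest of Neurod2 and Bhlhe22. Replicates 1 and 3 also differ in the set of reads outside genes to which they belong, and the set and the embryo cannot be told apart.

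The E proteins beside Tcf4 did not pass. Tcf3 had a log2 fold change of 0.20 (SE 0.33) and Tcf12 of 0.06 (SE 0.24). None of the 3 E proteins passed in edgeR or limma-voom, while Tcf4 passed in DESeq2, and 1 of 3 had an unadjusted p under 0.05. Of the 4 Id genes, whose products bind E proteins without binding DNA, 1 rose and 1 fell. Id3 was at 188 ± 51.6 CPM (SD, n = 3) in cKO and 80.6 ± 25.9 CPM (n = 7) in controls, which made 1.23 on the log2 scale (SE 0.23, edgeR adjusted p = 0.00516). Id2 was at 743 ± 81.1 and 1175 ± 133 CPM, which made -0.66 (SE 0.13, edgeR adjusted p = 0.00721). Neither group overlapped the other for Id2 or Id3, whereas Id1 and Id4, at 0.57 and 0.11, did not pass.

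Of the 8 Hes and Hey repressors, 4 reached the count minimum (Hes1, Hes5, Hes6 and Hey1) and none passed in edgeR, DESeq2 or limma-voom. Hes5, a Notch target that keeps progenitors undifferentiated, came nearest, at 175 ± 39.2 CPM in cKO and 126 ± 28.5 CPM in controls (log2 fold change 0.48, SE 0.19, edgeR adjusted p = 0.216), and it was the 1 gene of the list with an unadjusted p under 0.05. Hey1 and Hes1, both at -0.14, and Hes6, at -0.02, had overlapping groups.

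Of 12 further neural bHLH genes, 3 could be tested and 1 passed. Nhlh2, the close paralogue of Nhlh1, rose with it, at 120 ± 54.9 CPM in cKO and 33.3 ± 13.1 CPM in controls, or 1.84 on the log2 scale (SE 0.30, edgeR adjusted p = 0.00179) with no overlap between groups. Bhlhe40, at -0.23 (SE 0.42), and Olig1, at 0.04 (SE 1.02), did not pass. Neurog3, Atoh1, Bhlhe23 and Ptf1a had 0 reads in all 10 libraries, which allows up to 3 reads, or 0.892 to 1.73 CPM, per library, as far as counting error goes.

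Of 14 genes known as targets of neurogenins, 1 rose and none fell in edgeR, with 4 higher and 2 lower at an unadjusted p under 0.05. Rnd2, a small GTPase of migrating neurons that Neurog2 activates, was at 160 ± 50.8 CPM against 76.4 ± 20.3 CPM (log2 fold change 1.09, SE 0.22, edgeR adjusted p = 0.00917). Without cKO replicate 1 it was 0.78 and the adjusted p 0.0740. The Notch ligand Dll1 was at -0.14 (SE 0.30), the intermediate progenitor factor Eomes at 0.18 (SE 0.24) and the layer VI factor Tbr1 at -0.18 (SE 0.19), none of which passed. Without cKO replicate 2 Insm1 (-1.27, adjusted p = 0.0241) and Cbfa2t2 (-0.85, adjusted p = 0.0253) passed as lower. The list had a median log2 fold change of 0.08.

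Of 5 genes tied to the late factors as partners or targets, none passed in edgeR or limma-voom, DESeq2 called 1 lower, and 3 were lower at an unadjusted p under 0.05. These were the cell adhesion genes Cntn2 at -0.61 (SE 0.18, edgeR adjusted p = 0.0818) and Cdh11 at -0.82 (SE 0.32, edgeR adjusted p = 0.196) and the deep-layer factor Fezf2 at -0.59 (SE 0.20, edgeR adjusted p = 0.141). Without control replicate 6 Cntn2 passed, at -0.68 (edgeR adjusted p = 0.0342). Prdm8, which forms a repressor complex with Bhlhe22, was at 0.15 (SE 0.26) and, like Bhlhe22, did not pass. Among 11 projection neuron markers 1 fell, the upper-layer factor Cux2 (35.8 ± 13.0 and 75.8 ± 19.1 CPM, log2 fold change -1.07, SE 0.25, edgeR adjusted p = 0.0257). DESeq2 called 4 of the 11 lower, and 7 were lower at an unadjusted p under 0.05. The values of 9 were negative, with a median of -0.59, and the summed level ran from 1131 to 1627 CPM in cKO and from 1587 to 2432 CPM in controls, so the sums overlapped. Cux2 lost its call without cKO replicate 2 (adjusted p = 0.0860) and without cKO replicate 3 (adjusted p = 0.100). With 1 library left out, 0 to 3 of the 11 markers passed as lower, and the genes that gained a call were Sox5 (-1.22 without cKO replicate 1, adjusted p = 0.0148), Pou3f2 (-1.04 without cKO replicate 2, adjusted p = 0.0335) and Mef2c (without cKO replicate 1, control replicate 5 or control replicate 6, adjusted p = 0.0457, 0.0418 and 0.0226).

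Of the markers of the stages at which the early factors act, those that passed in edgeR were Rnd2 and Unc5d. Both are in the list of 10 for newborn and immature neurons, and the share to set beside them is 3.15% of all genes tested. None of 9 radial glia markers passed in edgeR, DESeq2 or limma-voom, and 1, Hes5, had an unadjusted p under 0.05, followed by the intermediate filament gene Nes at 0.52 (SE 0.26) and the progenitor factor Sox2 at 0.51 (SE 0.34). None of 7 intermediate progenitor markers passed in edgeR or limma-voom, while DESeq2 called 1 and 3 had an unadjusted p under 0.05. These were the somatostatin receptor Sstr2 at -0.55 (SE 0.16), the zinc finger factor Insm1 at -0.71 (SE 0.29) and the antiproliferative gene Btg2 at 0.58 (SE 0.22), with edgeR adjusted p values of 0.0824, 0.230 and 0.192. Insm1 passed without cKO replicate 2, and without control replicate 3 Sstr2 was at -0.61 (adjusted p = 0.0392). Of 10 markers of newborn and immature neurons, Rnd2 rose and Unc5d, a netrin receptor of migrating upper-layer neurons, fell (59.5 ± 15.7 and 112 ± 15.2 CPM, log2 fold change -0.91, SE 0.19, edgeR adjusted p = 0.0127). Without cKO replicate 1 or 3 the adjusted p of Unc5d was 0.0509 and 0.0687. DESeq2 called 2 of the 10 higher and 1 lower, and 2 were higher and 2 lower at an unadjusted p under 0.05. Without cKO replicate 1 Tubb3 (-0.81, adjusted p = 0.0335) and Sox4 (-1.15, adjusted p = 0.00489, against 0.18 with all libraries) passed as lower, and without cKO replicate 2 Gap43 passed as higher (0.65, adjusted p = 0.00754). Median log2 fold changes were 0.10 for radial glia, -0.14 for intermediate progenitors and -0.04 for newborn and immature neurons.

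Among markers of other cells, those of Cajal-Retzius cells moved with the genotype. All 5 tested markers of Cajal-Retzius cells, early-born neurons of the marginal zone that express Reln, rose, and the summed level of the 6 listed genes ran from 527 to 633 CPM in cKO and from 16 to 161 CPM in controls, with Reln itself at 297 ± 60.9 and 44.0 ± 30.8 CPM (log2 fold change 2.71, SE 0.41, edgeR adjusted p = 0.000949). The others were Lhx1 at 3.68 (SE 0.54), Lhx5 at 2.86 (SE 0.49), Calb2 at 2.47 (SE 0.43) and Cacna2d2. Cacna2d2 had 12.6 ± 5.74 CPM in cKO and 2.16 ± 1.99 CPM in controls and lost its call without cKO replicate 1 (adjusted p = 0.0664). Lhx1 had at least 12.21 CPM in cKO and at most 3.57 CPM in controls, while the groups overlapped for Lhx5. Lhx1 and Cacna2d2 reached the count minimum through their cKO reads, so for them the filter favoured a rise. Ebf3, the other listed gene, did not reach it and was not tested. All 7 tested interneuron markers had positive log2 fold changes, with a median of 1.34 and 5 higher at an unadjusted p under 0.05. The groups overlapped for each of the 7. Dlx6os1 averaged 10.4 reads and reached the minimum of 10 through its cKO reads, and Gad1 and Lhx6 lay near that minimum. A list filtered in this way leans towards positive values. In edgeR 1 rose, Dlx2 (16.6 ± 6.77 and 5.29 ± 2.99 CPM, log2 fold change 1.63, SE 0.41, edgeR adjusted p = 0.0354). Its call was lost in 7 of the 10 fits with 1 library left out, at log2 fold changes of 1.36 to 1.65. The sum of the list ran from 42.5 to 120 CPM in cKO and from 15.6 to 55.9 in controls. The part of either cell type in the rise of Nhlh1 and Nhlh2 or in the fall of Neurod2 and Neurod6 was not tested. The 6 microglia and 6 endothelial and mural markers summed to at most 33.1 and 20.5 CPM in any library, blood markers ran from 20.4 to 2301 CPM in cKO and from 0.360 to 1817 in controls, and 4 oligodendrocyte lineage markers reached 83.1 CPM in control replicate 1. None of the 5 blood markers tested passed in edgeR, DESeq2 or limma-voom, with 1, Hba-a2, at an unadjusted p under 0.05. Only reads with 1 alignment were kept, so reads that match both Hba-a2 and its near-identical copy Hba-a1 were dropped.

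**Figure D5:**
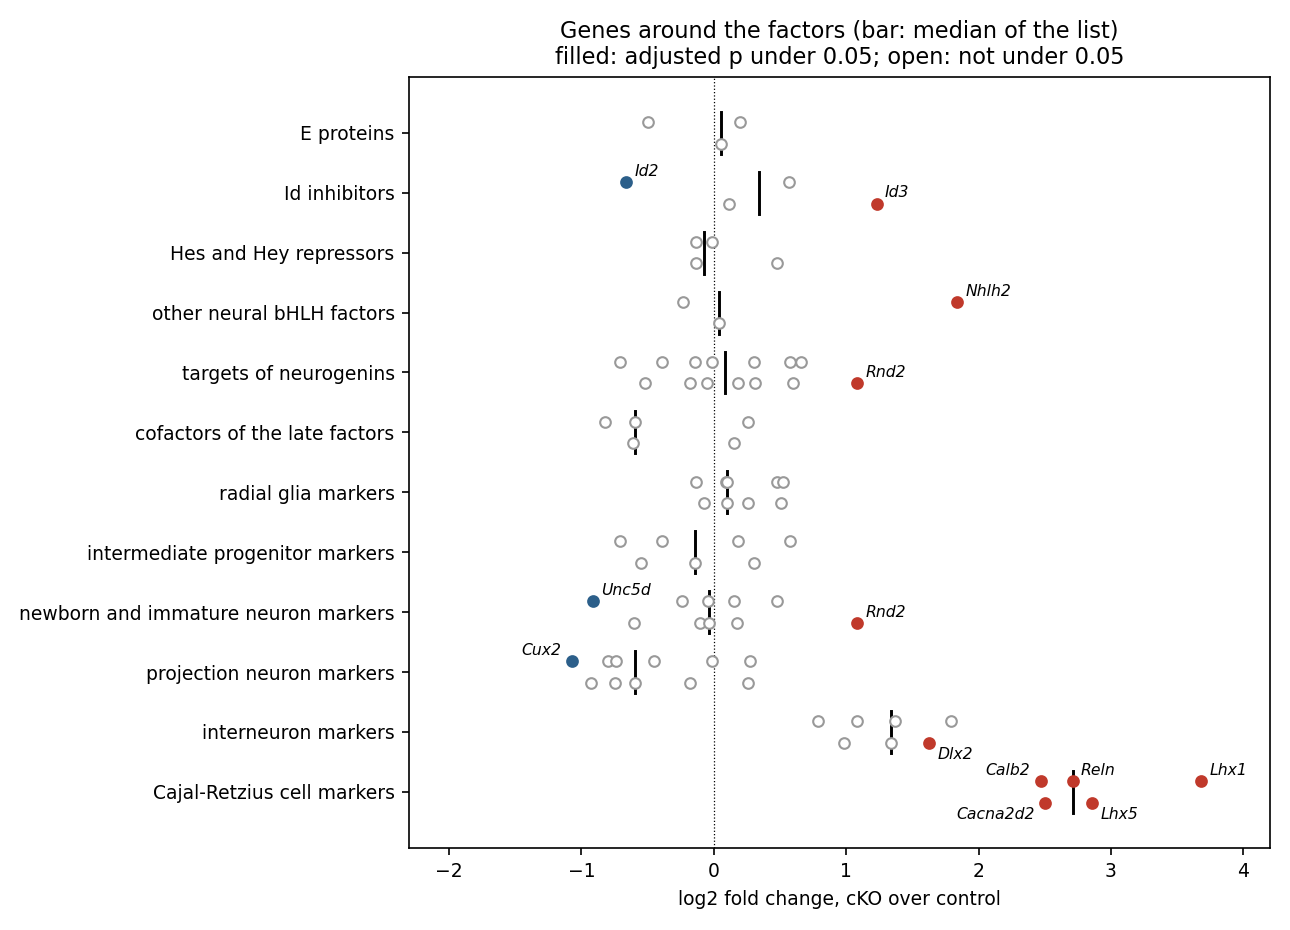
Log2 fold change, cKO over control, of each tested gene in 12 lists around the factors, filled and named where the edgeR adjusted p was under 0.05, with the median of each list as a bar. Id2 and Id3 lie on opposite sides of 0, the median of the projection neuron markers is -0.59, and the Cajal-Retzius cell markers lie farthest to the right, with a median of 2.71.

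The genes whose centred log2 CPM followed each called factor most closely over the 10 libraries were listed by the root mean square of the difference. For Neurod6 these were the semaphorin receptor Nrp1 (0.116), Cmtm6 (0.135) and Parp11 (0.137), beside a median of 0.674 over all genes. Those nearest Neurod2 were Tspan5 (0.0916), Banp (0.123) and Limch1 (0.126), beside a median of 0.582. Nhlh1 was followed less closely, by Id3 (0.296), Isoc1 (0.319) and Mavs (0.339), beside a median of 0.923. Nrp1 was at 160 CPM in cKO and 335 CPM in controls on average, with a log2 fold change of -1.07 (SE 0.14, edgeR adjusted p = 0.000231). A small difference follows in part from a shared change between genotypes and is given as a description only.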

How the data were processed

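MADM-labelled cells were sorted from E16 cortex and their RNA sequenced, with 400 cells and 1 embryo per library (3 cKO, 7 control). The authors merged technical replicates, converted them to reads with bedtools 2.26.0, aligned them to GRCm38 with STAR 2.5.0c, kept reads with 1 alignment and deposited raw counts of reads per GENCODE M16 gene in 3 columns, of which the one that ignores strand was used. The reads carry no molecular identifiers, so counts are not independent molecules and intervals and floors for single values cover counting error only. Reads over more than 1 gene were left out of that column.

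Symbols and positions came from GENCODE M21 (GRCm38). Of 53379 genes, 50604 matched on both identifier and version, 2670 on the identifier alone and 105 not at all. Rows that name no gene stayed out of library sizes and tests, and reads outside genes came to 5.47 to 16.7% of uniquely aligned reads. The 11551 genes that averaged 10 reads or more were compared with edgeR 4.0.16 in R 4.3.3 (TMM, estimateDisp, glmQLFit with legacy = FALSE, glmQLFTest, genotype alone), with Benjamini-Hochberg adjustment over all of them and a threshold of 0.05. SEs are those implied by the quasi-likelihood F. The fit was tested on simulated data. Libraries within a group were compared in 24 pairs, of which none differed by as little as sampling noise. Alternatives were DESeq2 1.42.0, limma-voom (limma 3.58.1), other size factors, filters, count columns and covariates, a replicate block and each library left out.

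The 9 factors and the gene lists were chosen with earlier results of these data known. Named are the factors, Cdkn1c, the listed genes with an adjusted p under 0.05, up to 3 with the smallest p where none had one, and the 3 genes most like each called factor. Other listed genes named beside them (Id1, Id4, Hes6, Bhlhe40, Olig1, Cbfa2t2, Dll1, Eomes, Tbr1, Prdm8, Sox4, Sox5, Tubb3, Gap43, Pou3f2 and Mef2c) were chosen after their values were seen. Some listed genes are not reported here and were left out of the list counts. Promoter windows of 250 bases were read from RefSeq (GRCm38.p6). Plots came from matplotlib 3.10.9 (Python 3.11.15).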

Additional observations from a re-analysis of the deposited data

Results flagged for a closer look

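Neurod2 in control replicate 5 was at 459 CPM, apart from the other 6 controls, which ran from 519 to 556 CPM. The gap to its nearest neighbour made up 0.616 of the whole range of the 7 controls, which is past Dixon's 95% limit for that number. It was the single case among 22 genes checked, and chance alone flags about 1 in 20 groups. Its value still lay above all cKO libraries, and without that library the log2 fold change of Neurod2 was -0.79 (edgeR adjusted p = 0.00649).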

How the results depend on the processing

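Neurod6 was called under every alternative tried and with each library left out, at edgeR, DESeq2 or limma-voom adjusted p values up to 0.00745. The count of factors lower in cKO was 4 with no filter on low counts, where Tcf4 (-0.52, adjusted p = 0.000166) and Neurog2 (-0.70, adjusted p = 0.00670) passed, and 2 to 4 with 1 library left out; the count of factors higher was 0 to 1 then. Tcf4 also passed with the outside share as a covariate (-0.53, adjusted p = 0.0338). Signs turned among factors that never passed: with 1 library left out for Neurog1 (-0.65 to 0.23), Neurod4 (-0.78 to 0.035) and Bhlhe22 (-0.32 to 0.016), and within the low-outside set for Neurog1 (0.56) and Neurod4 (0.19); the cause was not tested. A replicate block left 2 residual degrees of freedom, and same-numbered libraries did not deviate together (correlations 0.0407, -0.1031 and -0.2109), so the numbers do not pair the samples. With the replicate block, 1 factor was lower (Neurod6), Neurod2 was at -0.78 (adjusted p = 0.0978), Neurog1 at 0.84 and Neurod4 at 0.018, and 141 genes were higher. Over all genes, 262 were higher and 102 lower: DESeq2 gave 300 and 210, no filter 701 and 260 of 26537 genes, at least 10 reads in every library 134 and 72 of 9554, and leaving out 1 library 187 to 268 and 83 to 156, the latter without cKO replicate 2. The median log2 fold change of all genes moved by less than 0.1 under each setting. Neurod4 could not be tested with at least 10 reads in every library. Reads were fewest for Neurog1 and Neurod4, at 13 to 72 and 9 to 41 per library.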
